A study of Mus musculus with 8 samples.

Results

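The homeobox regulators described here are the HOX genes of the HOXA, HOXB, HOXC and HOXD clusters together with the LHX, PAX, DLX, sine oculis (such as Six4), NKX, IRX, MEIS, PBX and MSX families. They were chosen by gene symbol: 100 symbols of the GENCODE M21 annotation match these family names, and 49 of them, 26 of them HOX genes, are among the 17488 genes analysed. RNA was sequenced from whole abdominal neuroblastomas, 1 from each of 8 mice that carried TH-MYCN in the homozygous state; in this transgene the tyrosine hydroxylase promoter drives human MYCN in sympathoadrenal cells. Treatment of all animals began at about 6 weeks of age, when ultrasound put the tumours at 200 to 300 mm3. One group (n = 4) received 2 doses, 24 h apart, of 5 mg/kg panobinostat, a hydroxamate inhibitor of zinc-dependent histone deacetylases, and the other (n = 4) received vehicle on the same schedule. Harvest followed the second dose by 4 h. Each library came from 1 animal and held tumour and stroma together, so fewer cells of a type and less RNA per cell cannot be told apart.

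HOX proteins are transcription factors that bind DNA through a homeodomain and give cells their position along the body axis. Their genes lie in clusters in which paralogue number 1 marks the 3′ end, which is active in the anterior body, and high numbers mark the posterior end. PBX and MEIS proteins, homeodomain proteins of the TALE class, bind DNA together with HOX proteins and sharpen their choice of site. Silent HOX clusters are held by Polycomb complexes and opened by retinoic acid in the embryo. Sympathetic neurons arise from trunk neural crest and keep a HOX code, and fibroblasts, fat cells and other stromal cells keep HOX codes of their own. LHX, PAX, DLX, sine oculis, NKX, IRX and MSX genes specify cell types in the nervous system, neural crest, kidney, muscle, skull and gut.

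Depth ranged from 18664066 to 22235545 reads among panobinostat libraries and from 22055658 to 23830026 among vehicle libraries, so that 1 CPM, the read count scaled to library size, stood for 19.3 to 22.6 reads. Panobinostat libraries differed in other tissue: adrenal cortex markers summed to 35.3 to 2327 CPM with panobinostat and to 8.82 to 10.9 CPM with vehicle, and liver and pancreas markers were highest in panobinostat library 4 and kidney markers in panobinostat library 3. Fibroblast and mural markers were higher with panobinostat for all 8 genes of the list, and among vehicle libraries they were highest in library 1. Markers of the tumour cells themselves, such as Phox2a and Hand2, were present in all 8 libraries and summed to 891 to 1028 CPM with panobinostat against 1671 to 2527 CPM with vehicle. These values are given again beside the genes they are set against.

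Genes of the HOXA and HOXB clusters, nearly silent in vehicle tumours, were higher after panobinostat, whereas the more abundant genes of HOXC and HOXD were lower or made no call. Of 15 tested HOXA and HOXB genes 15 rose, with log2 changes of 1.31 to 4.10, and of 8 tested HOXC and HOXD genes 5 fell and 3 made no call, with changes of -1.86 to -0.53. The HOX cofactor genes Meis1 and Pbx3 fell. Outside the HOX system Six4, Six5, Msx1 and Lhx6 rose, and Dlx5 and Dlx6 fell. Over all families 20 members rose and 10 fell of 41 tested (limma, Benjamini-Hochberg adjusted p under 0.05). Over all 16157 tested genes 63.7% were called, 31.2% higher and 32.4% lower. The libraries of the groups did not overlap in 17 of 41 tested members with panobinostat above and in 8 with panobinostat below, against 28.5% and 31.2% of all tested genes (59.7% either way). A gene was tested where it had at least 1 CPM in at least 4 libraries. Each of the 15 HOXA and HOXB genes reached 1 CPM in all 4 panobinostat libraries and none did so in all 4 vehicle libraries. They thus entered the test through the group in which they are high, and their count is a description only. Msx1 and Lhx6 also reached 1 CPM in all 4 panobinostat libraries, but in only 3 and 1 vehicle libraries. The same limit therefore extends to the counts of members that rose or lay above without overlap. With no such filter, all 49 members entered: 22 were called higher and 10 lower, in a background of 61.6% called, 31.1% higher and 30.4% lower over 17488 genes.

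Promoter sequences from RefSeq (GRCm38.p6, 250 bases before to 50 bases after a start) matched 30 of the 49 members. They are shown for 3 HOX genes that rose and 2 that fell, since these genes of one family moved in opposite directions. Capitals mark a HOX-PBX motif (TGATNNAT) or a MEIS motif (TGACAG), read on both strands; these letters do not overlap each other, and none of these 5 sequences holds the MYC E-box CACGTG.
Hoxa2, rose, chr6:52164782-52165081, minus strand: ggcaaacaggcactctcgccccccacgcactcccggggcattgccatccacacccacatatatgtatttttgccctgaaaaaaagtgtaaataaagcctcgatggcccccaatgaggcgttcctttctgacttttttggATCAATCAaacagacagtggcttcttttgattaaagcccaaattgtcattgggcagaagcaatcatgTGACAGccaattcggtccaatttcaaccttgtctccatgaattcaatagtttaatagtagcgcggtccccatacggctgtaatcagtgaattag
Hoxa9, rose, chr6:52227321-52227620, minus strand: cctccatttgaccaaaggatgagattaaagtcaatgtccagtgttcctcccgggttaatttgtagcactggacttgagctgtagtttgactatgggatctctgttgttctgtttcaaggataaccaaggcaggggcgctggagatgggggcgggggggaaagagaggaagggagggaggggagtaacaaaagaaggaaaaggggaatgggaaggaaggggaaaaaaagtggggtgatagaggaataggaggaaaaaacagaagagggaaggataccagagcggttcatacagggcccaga
Hoxb8, rose, chr11:96281655-96281954, plus strand: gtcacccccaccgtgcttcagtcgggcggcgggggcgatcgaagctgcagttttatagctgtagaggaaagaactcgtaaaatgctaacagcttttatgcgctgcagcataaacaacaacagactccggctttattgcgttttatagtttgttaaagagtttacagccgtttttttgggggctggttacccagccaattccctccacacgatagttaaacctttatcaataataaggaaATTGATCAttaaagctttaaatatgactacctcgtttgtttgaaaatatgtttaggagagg
Hoxc4, fell, chr15:103034145-103034444, plus strand: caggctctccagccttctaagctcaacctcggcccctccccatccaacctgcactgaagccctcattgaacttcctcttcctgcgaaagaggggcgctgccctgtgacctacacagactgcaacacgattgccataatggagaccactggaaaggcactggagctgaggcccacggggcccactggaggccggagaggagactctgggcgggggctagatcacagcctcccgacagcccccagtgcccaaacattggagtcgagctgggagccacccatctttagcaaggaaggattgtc
Hoxd8, fell, chr2:74704365-74704664, plus strand: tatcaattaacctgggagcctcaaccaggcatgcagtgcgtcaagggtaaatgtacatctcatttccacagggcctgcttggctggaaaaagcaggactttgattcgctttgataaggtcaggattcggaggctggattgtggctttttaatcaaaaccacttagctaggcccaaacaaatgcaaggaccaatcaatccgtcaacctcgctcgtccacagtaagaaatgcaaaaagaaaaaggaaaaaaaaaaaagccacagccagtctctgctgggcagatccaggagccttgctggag
The HOX-PBX letters stood in 2 of 34 promoters of members, those of Hoxa2 and Hoxb8 shown above (5.88%), and in 8.85% of all 32851 promoters in the table. The MEIS letters stood in 20.6% of members' promoters and in 19.2% of all, and the E-box in 0 of 34 and in 7.15% of all. Members' promoters held a median of 15.5 CpG dinucleotides per 300 bases, against 7 over all promoters.

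**Figure D1:**
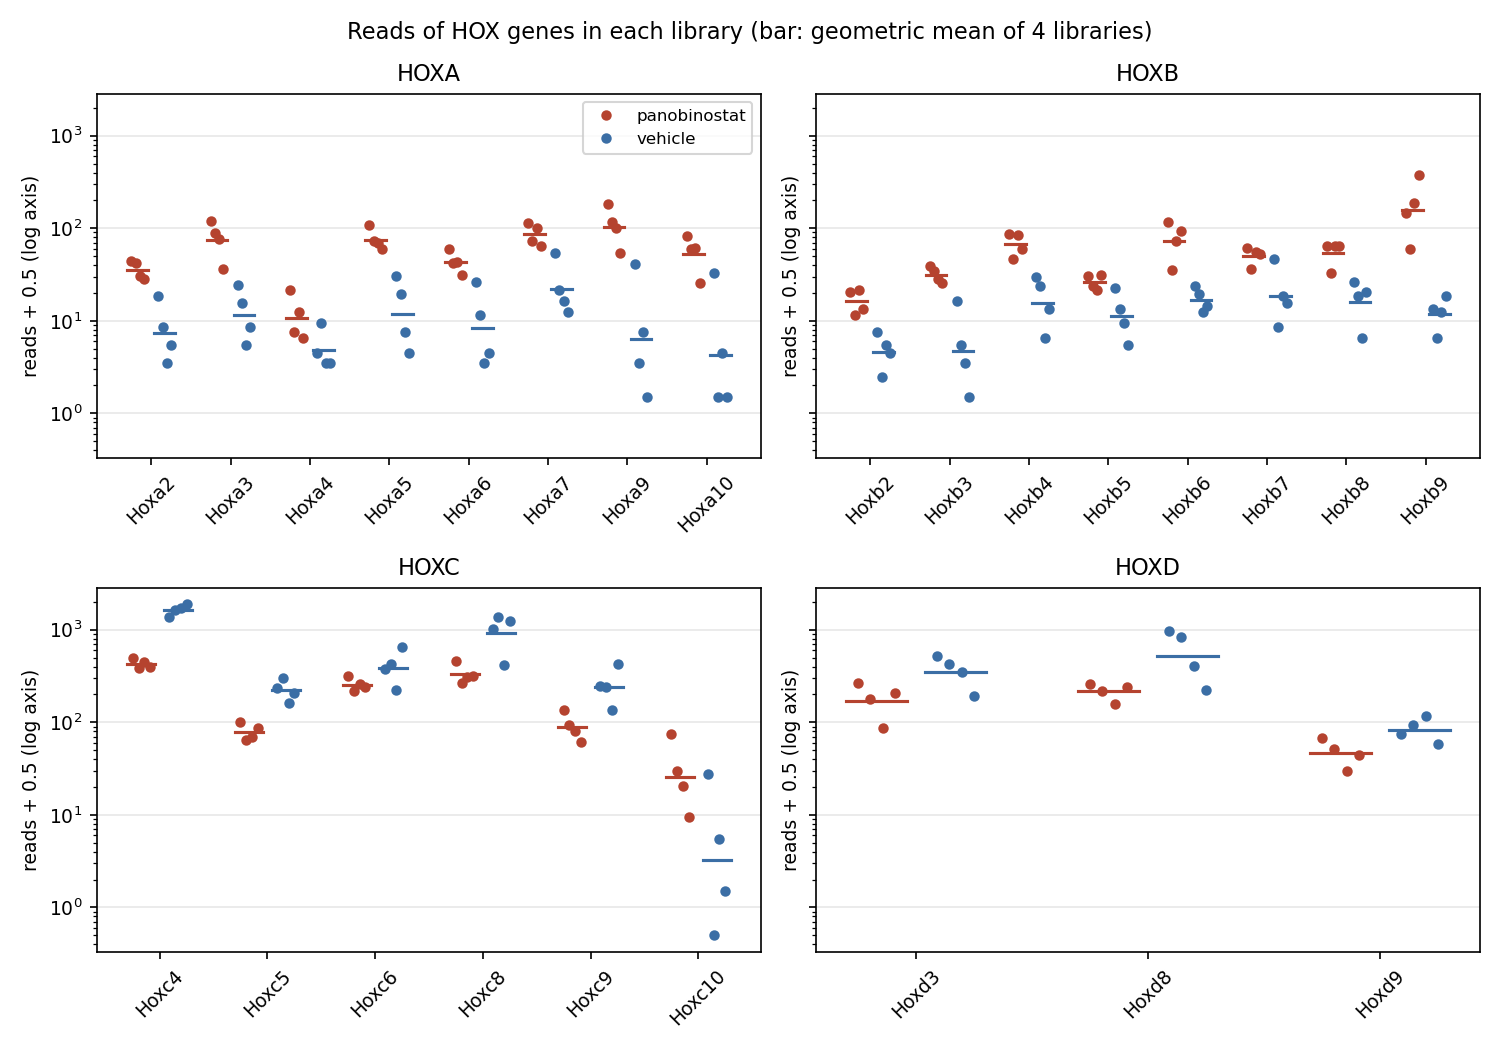
Reads (plus 0.5, log axis) of HOX genes in each library, panobinostat left and vehicle right of each gene, with a bar at the geometric mean of 4 libraries. HOXA and HOXB genes mostly lie higher with panobinostat, the abundant HOXC and HOXD genes mostly lower, and Hoxc10 goes with HOXA.

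The HOXA cluster on chromosome 6 had the largest median change of the 4 clusters, 2.75 on the log2 scale over its 8 tested genes, all of which rose. Hoxa9, a posterior gene best known from leukaemia, had 181, 117, 99 and 53 reads in panobinostat tumours, against 41, 3, 7 and 1 reads in vehicle tumours. The groups did not overlap, and vehicle library 1 held most of the vehicle reads. The log2 change was 4.10 (SE 0.87, adjusted p = 0.00272, limma). Its neighbour Hoxa10, a gene of the uterus and posterior trunk, had 81, 59, 61 and 25 reads with panobinostat and 32, 1, 4 and 1 reads with vehicle. Here vehicle library 1 lay above panobinostat library 4, and the change was 3.70 (SE 0.90). Without vehicle library 1 the change was 4.98 for Hoxa9 and 4.66 for Hoxa10, and without vehicle library 4 it was 3.42 for Hoxa9 and 3.21 for Hoxa10. Both genes were highest in library 1 of their group, the library that also held the most fibroblast markers of that group (15437 CPM with panobinostat, 4724 CPM with vehicle).

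Nearer the anterior end Hoxa5, a gene of lung and trunk mesenchyme, had 108, 72, 68 and 59 reads with panobinostat against 30, 19, 7 and 4 reads with vehicle, a change of 2.74 (SE 0.56). Hoxa7 was the HOXA gene with the most vehicle reads, 54, 21, 16 and 12, beside 114, 73, 100 and 63 reads with panobinostat, and its change of 2.03 (SE 0.43) was the smallest of the tested HOXA genes. In vehicle tumours the order of the libraries was the same for Hoxa5 and Hoxa7, from library 1 down to library 4. Hoxa2 (2.35, SE 0.49), Hoxa3 (2.76, SE 0.52) and Hoxa6 (2.45, SE 0.60), which pattern the hindbrain, pharyngeal arches and trunk, also rose without overlap. Annotated antisense genes cover 20.4% of Hoxa7 exon bases (Hoxaas3), and Gm28308 shares 15.0% of those of Hoxa2 on the same strand. Hoxa4 did not reach 1 CPM in any library and had 21, 7, 12 and 6 reads with panobinostat and 4, 9, 3 and 3 reads with vehicle.

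HOXB genes on chromosome 11 rose in 7 of 7 tested cases, with a median of 2.18. Hoxb9 stood apart from its neighbours, with 145, 59, 189 and 376 reads in panobinostat tumours and 13, 6, 12 and 18 reads in vehicle tumours. The groups did not overlap, panobinostat library 4 held the most reads, and the change was 3.80 (SE 0.54, adjusted p = 2.55e-04, limma). The order of the panobinostat libraries, 4, 3, 1 and 2, was also that of the adrenal cortex markers, which summed to 2327, 881, 551 and 35.3 CPM in the same order. With vehicle the 2 orders differed, Hoxb9 being highest in library 4 and these markers in library 1. Its neighbour Hoxb8 had 63, 32, 63 and 64 reads with panobinostat against 26, 18, 6 and 20 reads with vehicle, a change of 1.83 (SE 0.46). The part of adrenal cortex RNA in the Hoxb9 values was not tested. Panobinostat library 2 held the least of these markers in its group, 35.3 CPM, but more than the 8.82 to 10.9 CPM of vehicle libraries. Its 59 Hoxb9 reads were likewise more than in any vehicle library.

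Among the remaining HOXB genes Hoxb6 (2.19, SE 0.38) and Hoxb4 (2.18, SE 0.47), a gene of trunk patterning and blood stem cells, rose without overlap. Hoxb4 had 86, 46, 85 and 59 reads with panobinostat and 29, 23, 6 and 13 reads with vehicle. Hoxb3 had 39, 34, 28 and 25 reads with panobinostat and 16, 5, 3 and 1 reads with vehicle (2.84, SE 0.63; 3.42 without vehicle library 1), but 52.9% of its annotated exon bases are shared with the opposite-strand gene Hoxb3os, which rose as well (1.83, SE 0.33). Whether the counting used strand is not given in the sources used here, so reads of these 2 genes cannot be told apart. Hoxb7 rose (1.54, SE 0.45) with overlap, since vehicle library 1 held 46 reads and panobinostat library 2 held 36. Hoxb5 had the smallest change of the cluster, 1.31 (SE 0.43, adjusted p = 0.0223, limma), and its call was lost without panobinostat library 1 or 4 or vehicle library 3 (adjusted p = 0.0530, 0.0613 and 0.0505, limma). Hoxb2 was under the filter, with 20, 11, 21 and 13 reads with panobinostat and 7, 2, 5 and 4 reads with vehicle. Without a filter it was called higher (1.88, SE 0.47). Hoxb3os also shares 27.3% of the exon bases of Hoxb2, so the same limit on strand applies.

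The HOXC cluster on chromosome 15 held the highest summed level per length of the 4 HOX clusters in every library, and 4 of its 5 tested genes fell. Hoxc4, a gene of the cervical and thoracic spinal cord, had 489, 384, 448 and 395 reads in panobinostat tumours and 1368, 1617, 1704 and 1892 reads in vehicle tumours. The groups were far apart and each was tight, and the change of -1.86 (SE 0.13, adjusted p = 7.59e-06, limma) had the smallest p of all members. Hoxc5 had 99, 64, 69 and 87 reads with panobinostat and 235, 304, 160 and 207 reads with vehicle, a fall of 1.40 (SE 0.25) without overlap. Hoxc8, a thoracic gene, had 463, 265, 307 and 313 reads with panobinostat and 1014, 1356, 420 and 1255 reads with vehicle. Vehicle library 3 was low and reached into the panobinostat range, so the groups overlapped (change -1.40, SE 0.36, adjusted p = 0.00758, limma).

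Hoxc9, which represses anterior HOX genes in motor neurons of the thoracic cord, fell by 1.38 (SE 0.36), with 134, 92, 80 and 60 reads with panobinostat and 245, 242, 136 and 422 reads with vehicle. Hoxc6, another gene of the thoracic region, made no call: it had 314, 217, 256 and 239 reads with panobinostat against 372, 423, 222 and 645 reads with vehicle (change -0.53, 95% interval -1.21 to 0.15). Vehicle library 3 was the low one here too, and without it Hoxc6 was called lower (-0.81, adjusted p = 0.0114, limma), whereas without vehicle library 4, the highest, the change was -0.27 (adjusted p = 0.361, limma). Hoxc10, the most posterior HOXC gene analysed, did not go with its cluster. It had 75, 29, 20 and 9 reads with panobinostat and 27, 0, 5 and 1 reads with vehicle, was under the filter, and without a filter was called higher (3.05, SE 1.15, adjusted p = 0.0437, limma) although the groups overlapped. Of its exon bases 8.70% are shared with Hoxc5 on the same strand. Like Hoxa9 and Hoxa10 it was highest in library 1 of each group.

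HOXD genes on chromosome 2 were lower in 1 of 3 cases by the test. Hoxd8 had 260, 215, 156 and 243 reads with panobinostat and 964, 841, 402 and 220 reads with vehicle. Vehicle libraries 1 and 2 were high and vehicle library 4 lay inside the panobinostat range, so the groups overlapped (change -1.19, SE 0.43, adjusted p = 0.0368, limma). This call was lost when any panobinostat library or vehicle library 1 or 2 was left out (adjusted p = 0.0511 to 0.0981, limma). Hoxd3 had 266, 179, 86 and 206 reads with panobinostat and 517, 421, 346 and 193 reads with vehicle, and made no call (-0.94, 95% interval -1.82 to -0.07 before adjustment, adjusted p = 0.0564, limma). Of its exon bases, 53.1% are shared with Gm28230, an annotated gene on the same strand. Hoxd9 made no call either (-0.76, SE 0.31, adjusted p = 0.0569, limma). Without vehicle library 4, or without panobinostat library 1, both Hoxd3 (-1.22 and -1.12) and Hoxd9 (-0.92 and -0.91) were called lower. Without panobinostat library 3 the changes were -0.61 for Hoxd3 and -0.54 for Hoxd9 (adjusted p = 0.130 and 0.155, limma).

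**Figure D2:**
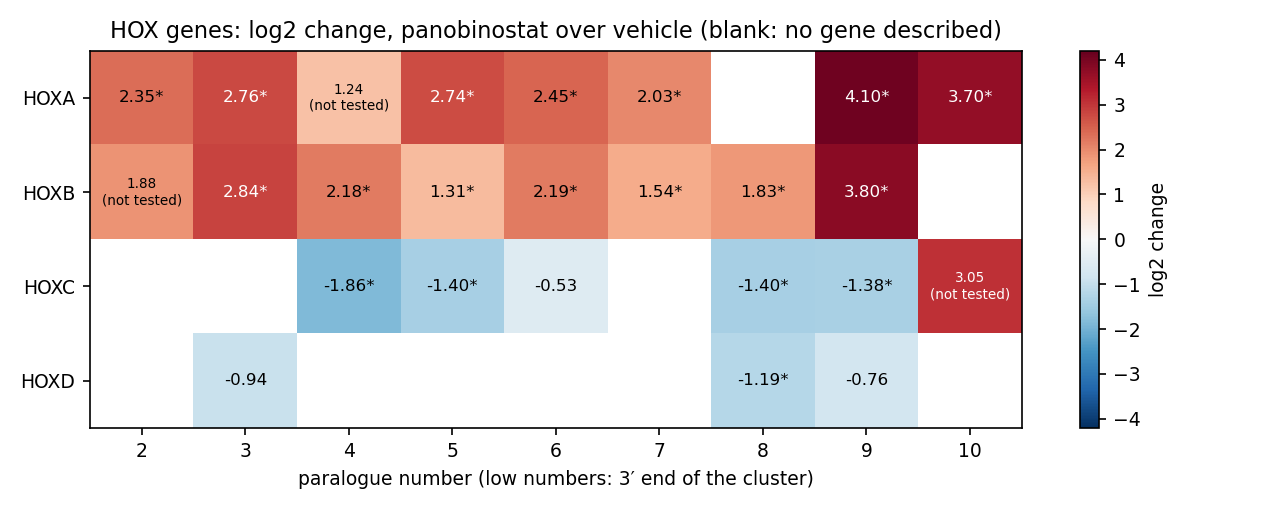
Log2 change, panobinostat over vehicle, of each HOX gene by cluster (rows) and paralogue number (columns); an asterisk marks adjusted p under 0.05 (limma), and blank cells hold no gene described here. HOXA and HOXB are higher at every number shown, while HOXC and HOXD are lower at every number but 10.

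Genes of 1 paralogue number differed in sign between clusters. Called genes went both ways at paralogue number 4 (Hoxb4 higher, Hoxc4 lower), 5 (Hoxa5 and Hoxb5 higher, Hoxc5 lower), 8 (Hoxb8 higher, Hoxc8 and Hoxd8 lower) and 9 (Hoxa9 and Hoxb9 higher, Hoxc9 lower). Within HOXA and HOXB the largest changes stood at number 9, and within the tested HOXC genes the largest fall stood at number 4. At paralogue number 10 Hoxa10 rose and Hoxc10 was the HOXC gene that did not fall.

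Per length, the abundance of the clusters was also reordered. Summed over the analysed genes, HOXC stood at 22.9 ± 3.0 RPKM (reads per kilobase of exon, scaled to library size) with panobinostat and at 63.0 ± 16.0 RPKM with vehicle (SD, n = 4). HOXD stood at 7.11 ± 1.88 RPKM with panobinostat against 16.1 ± 7.5 RPKM with vehicle, and panobinostat and vehicle ranges overlapped. HOXA reached 10.3 ± 2.5 RPKM with panobinostat and 2.13 ± 1.68 RPKM with vehicle, and HOXB 10.6 ± 3.8 RPKM against 2.21 ± 0.95 RPKM. HOXC thus made up 41.4% to 46.7% of this HOX sum in panobinostat tumours and 64.1% to 88.9% in vehicle tumours. Taken singly, HOXA (7.22 to 13.3 RPKM) and HOXB (5.88 to 15.1 RPKM) were still below HOXC (21.1 to 27.4 RPKM) in panobinostat tumours. The single most abundant HOX gene was Hoxc4 in both groups, at 8.11 ± 0.38 RPKM with panobinostat and 29.7 ± 4.7 RPKM with vehicle. By mean it was followed by Hoxc8 (5.75 ± 1.10 and 16.7 ± 7.5 RPKM). The Hoxc8 range overlapped those of Hoxc6 and Hoxb9 with panobinostat and those of Hoxc6, Hoxc9 and Hoxd8 with vehicle. In panobinostat library 4 Hoxb9 stood above Hoxc8, at 7.44 against 5.63 RPKM.

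**Figure D3:**
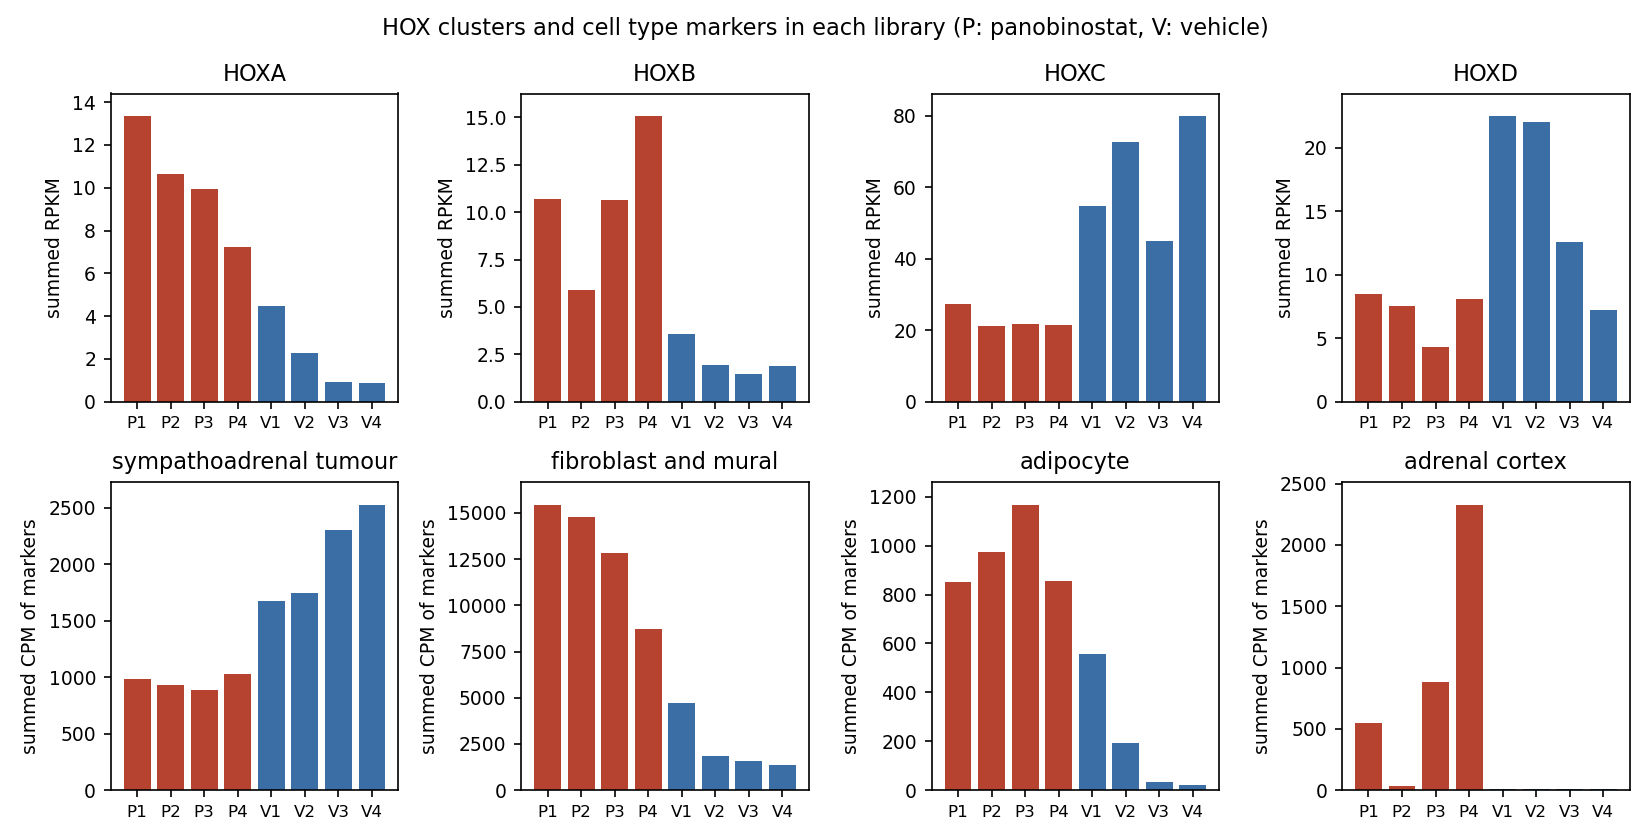
Top, RPKM summed over the analysed genes of each HOX cluster in each library; bottom, CPM summed over marker lists of 4 cell types; P, panobinostat, V, vehicle, 1 bar per library. HOXA follows the same order of libraries as the fibroblast markers, HOXB is highest in the library with the most adrenal cortex markers, and HOXC and the sympathoadrenal markers are lower in all panobinostat libraries.

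Markers of other cells also differed between the groups. The HOXA sum was 13.3, 10.7, 9.94 and 7.22 RPKM in panobinostat libraries 1 to 4 and 4.46, 2.26, 0.909 and 0.885 RPKM in vehicle libraries 1 to 4. The fibroblast and mural sum had the same order of libraries, with 15437, 14790, 12830 and 8705 CPM with panobinostat and 4724, 1857, 1587 and 1359 CPM with vehicle. All 8 genes of that list rose (median 2.63), as did all 5 adipocyte markers (853 to 1167 CPM with panobinostat, 20.4 to 558 CPM with vehicle) and all 6 macrophage markers (2602 to 4666 CPM with panobinostat, 532 to 983 CPM with vehicle). Within the groups the macrophage sum did not follow the library order of HOXA, and the adipocyte sum followed it with vehicle only. Among the sympathoadrenal markers the transcription factor genes Phox2a, Hand2, Gata3 and Isl1 fell and the catecholamine and granule genes Th, Dbh and Chga made no call (list median -1.97), beside a HOXC median of -1.40. The part of these cell types in the HOX values was not tested. A comparison chosen after the data were seen left out library 1 of each group, the richest in fibroblast markers. In it 15 HOX genes were higher and 5 lower, with Hoxd9 called and Hoxd8 no longer called (adjusted p = 0.0491 and 0.108, limma). The fibroblast and mural sums of the libraries kept were still apart, at 8705 to 14790 CPM with panobinostat and 1359 to 1857 CPM with vehicle. This comparison therefore cannot show the part of these cells.

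Among the cofactors of HOX proteins, Meis1 and Pbx3 fell. Meis1, a HOX partner in sympathetic and blood progenitors, had 1452, 1299, 1187 and 1187 reads in panobinostat tumours and 2616, 2702, 5320 and 3583 reads in vehicle tumours. The groups did not overlap, vehicle library 3 being the highest, and the change was -1.34 (SE 0.20, adjusted p = 3.54e-04, limma). Pbx3 had 621, 556, 661 and 594 reads with panobinostat and 1772, 2131, 1471 and 1427 reads with vehicle, a fall of 1.39 (SE 0.15, adjusted p = 5.50e-05, limma). The 4 panobinostat libraries were tight and lay below all vehicle libraries.

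Meis2, a gene reported to sustain human neuroblastoma cells, had 1219, 773, 860 and 1043 reads with panobinostat and 1460, 1071, 2049 and 4692 reads with vehicle. Vehicle library 2 lay within the panobinostat range, so that the groups overlapped, and vehicle library 4 was far the highest (change -0.96, SE 0.39, adjusted p = 0.0549, limma); without vehicle library 1 or 2 it was called lower (-1.12 and -1.22), and without vehicle library 4 the change was -0.53 (adjusted p = 0.0514, limma). Meis3 (-0.40, SE 0.19), Pbx2 (-0.23, SE 0.12) and Pbx4 (-0.18, SE 0.21) made no call. Per length, Pbx2 was the most abundant PBX gene with panobinostat (11.6 ± 0.8 RPKM) and one of 2 at about the same level with vehicle (13.8 ± 2.1 RPKM, beside 12.9 ± 2.9 RPKM for Pbx3). Of 7 further TALE genes and partners, 3 rose and 3 fell (31.2% and 32.4% over all tested genes): Pbxip1, which binds PBX proteins and limits their activity, rose by 2.71 (SE 0.32), Pknox2 rose by 0.90 (SE 0.16), and Hmgb1 fell by 0.94 (SE 0.10).

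**Figure D4:**
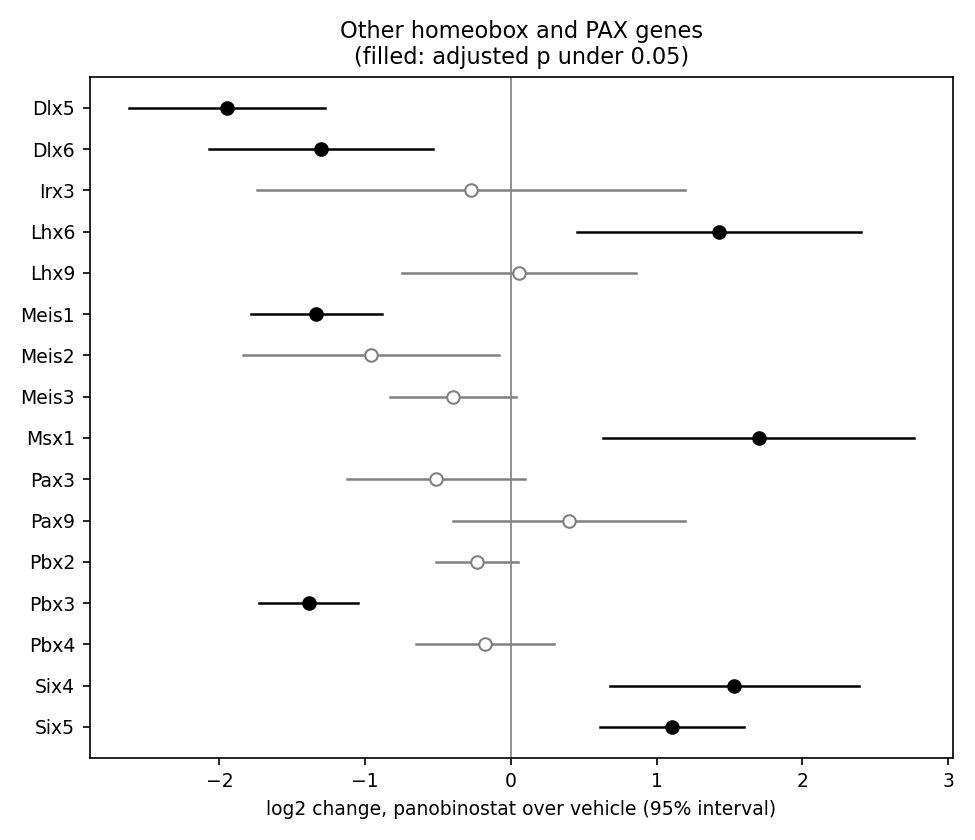
Log2 change, panobinostat over vehicle, with its 95% interval (limma, n = 4 per group) for tested members outside the HOX clusters; filled points have adjusted p under 0.05. Six4, Six5, Msx1 and Lhx6 are higher, Dlx5, Dlx6, Meis1 and Pbx3 are lower, and the intervals of the open points reach 0 or fail the adjustment.

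Genes of the sine oculis family encode homeodomain proteins that act with EYA coactivators and DACH corepressors in muscle, sensory organs and kidney. Six4, a gene of chromosome 12, had 177, 107, 118 and 73 reads with panobinostat and 47, 72, 36 and 23 reads with vehicle (1.53, SE 0.38). The groups did not overlap. Panobinostat library 1 and vehicle library 2 were the highest of their groups, and these libraries also held the most skeletal muscle markers, 6656 and 2381 CPM, against 93.0 to 656 CPM in other panobinostat and 13.7 to 310 CPM in other vehicle libraries. The part of muscle RNA in these values was not tested; panobinostat library 4, with 93.0 CPM of muscle markers, had 73 Six4 reads beside 72 in vehicle library 2.

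Six5, a ubiquitous member beside the myotonic dystrophy kinase gene on chromosome 7, had 183, 130, 137 and 133 reads with panobinostat and 62, 52, 94 and 82 reads with vehicle (1.11, SE 0.22, adjusted p = 0.00188, limma). Six2, which keeps kidney progenitors, stayed under the filter, with 19, 15, 13 and 16 reads with panobinostat and 18, 15, 17 and 6 reads with vehicle. The partners went mostly the other way: 4 of 6 EYA and DACH genes fell and 2 rose, in a background of 32.4% lower and 31.2% higher. Eya1 fell by 2.61 (SE 0.15) and Eya4 by 1.801 (SE 0.20), whereas Eya3 rose by 0.80 (SE 0.11).

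DLX proteins shape the jaw, limb and inhibitory neurons, and MSX proteins hold mesenchyme undifferentiated. Dlx5 had 33, 29, 33 and 58 reads with panobinostat and 136, 206, 127 and 149 reads with vehicle, a fall of 1.95 (SE 0.30, adjusted p = 4.02e-04, limma), the largest fall among the members. Its neighbour Dlx6, on the other strand of chromosome 6, had 48, 31, 46 and 82 reads with panobinostat against 102, 191, 124 and 111 reads with vehicle and fell by 1.31 (SE 0.34). In both genes panobinostat library 4 was the highest of its group and vehicle library 2 the highest of its own, and the groups did not overlap. Dlx1, which has 6.21% of its exon bases in common with the opposite-strand gene Dlx1as, was under the filter at 5 to 24 reads with panobinostat and 2 to 12 reads with vehicle. Msx1 rose by 1.70 (SE 0.47), with 129, 67, 65 and 44 reads with panobinostat and 29, 34, 9 and 29 reads with vehicle. Its library order with panobinostat was that of the fibroblast markers. With vehicle it was not, since Msx1 was highest in library 2 and those markers in library 1.

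Of the LIM genes, Lhx6, which specifies cortical interneurons and is active in jaw mesenchyme, had 59, 47, 57 and 67 reads with panobinostat and 59, 19, 14 and 15 reads with vehicle. Vehicle library 1 was as high as the panobinostat libraries, so the groups overlapped, and the change was 1.43 (SE 0.43, adjusted p = 0.0162, limma). Lhx9, a gonad gene, made no call (0.06, 95% interval -0.75 to 0.86). LIM-homeodomain proteins work through LDB adaptors and are held off by LMO proteins. A list of such partners, which also held the LIM-homeodomain gene Isl1 itself, had 11 tested genes, of which 8 fell and 1 rose. Over all tested genes 32.4% were called lower and 31.2% higher. Lmo3 fell by 2.91 (SE 0.18), and Isl1, also one of the sympathoadrenal markers above, fell by 2.23 (SE 0.15). Lmo1, a neuroblastoma susceptibility gene in humans, fell by 2.14 (SE 0.15). The gene that rose was Lmo2 (1.73, SE 0.30), a gene of blood and endothelium, chosen for mention after its value was seen.

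PAX, IRX and NKX genes gave no call. Pax3, a neural crest gene, had 43, 45, 44 and 42 reads with panobinostat and 62, 78, 93 and 42 reads with vehicle (-0.52, 95% interval -1.13 to 0.10). Without vehicle library 4 it was called lower (-0.72, adjusted p = 0.0198, limma), and without vehicle library 3 the change was -0.37 (adjusted p = 0.263, limma). Pax9, which has a paired domain but no homeodomain, changed by 0.40 (95% interval -0.40 to 1.198), and Irx3, a gene of neural tube and fat, by -0.28 (95% interval -1.74 to 1.19), with 12 to 90 reads among vehicle tumours.

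Pax8 and Pax5, both under the filter, had most of their reads in 1 or 2 libraries. Pax8, a gene of thyroid and kidney, had 49, 0, 64 and 1 reads with panobinostat and 0, 0, 1 and 0 reads with vehicle. Kidney markers stood at 769 CPM in panobinostat library 3, one of its high libraries, but at 3.72 CPM in panobinostat library 1, the other. Pax5, the B cell commitment factor, had 5, 2, 0 and 10 reads with panobinostat and 46, 2, 1 and 1 reads with vehicle, and vehicle library 1 also held the most B cell markers, 34.8 CPM against 5.78 to 19.0 CPM in the other libraries. Nkx2-9, a gene of the ventral neural tube, had 11 to 15 reads with panobinostat and 12 to 30 reads with vehicle.

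Genes that lie beside or control the HOX clusters were read from lists chosen with earlier results of these data known. In and beside the clusters 5 of 12 tested genes rose and 4 fell, beside 31.2% higher and 32.4% lower over all tested genes. Skap2, next to HOXA, rose by 2.00 (SE 0.23), and the noncoding Hotairm1, inside HOXA, rose by 2.14 (SE 0.46). Beside HOXC, Cbx5, which encodes the heterochromatin protein HP1 alpha, fell by 1.18 (SE 0.09) and Hnrnpa1, an abundant RNA-binding protein gene, by 1.32 (SE 0.11). Hibadh beside HOXA (1.21, SE 0.14) rose and Mtx2 beside HOXD (-0.68, SE 0.09) and Smug1 beside HOXC (-0.51, SE 0.12) fell; these were named after their values were seen.

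Chromatin regulators of HOX clusters numbered 24, of which 13 were called lower and 5 higher (median -0.48), beside 32.4% lower and 31.2% higher over all tested genes. The boundary factor gene Ctcf fell by 1.65 (SE 0.10), and the Polycomb genes Pcgf2 and Phc1 fell by 1.48 (SE 0.11) and 1.40 (SE 0.11). Among 16 genes of retinoid handling, retinoid reception and the CDX family, 10 were called higher and 2 lower (median 1.198). Over all tested genes 31.2% were higher and 32.4% lower. Aldh1a3, which makes retinoic acid, rose by 2.54 (SE 0.24). The receptor gene Rxrb fell by 0.82 (SE 0.12), whereas the receptor genes Rarg (1.82, SE 0.36) and Rxra (0.46, SE 0.18) rose. Rara, Rarb and Rxrg made no call. The receptor genes other than Rxrb were named after their values were seen. Of 6 tested Groucho corepressor genes 2 rose and 2 fell, beside the same 31.2% higher and 32.4% lower over all tested genes. Tle2 was among those that rose (3.82, SE 0.29), and Tle1 (-1.29, SE 0.11) and Tle4 (-1.52, SE 0.14) fell. The median change over all tested genes was -0.02, and macrophage and fibroblast markers were higher in the same libraries (medians 2.34 and 2.63).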

How the data were processed

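The authors deposited 1 log2 value per gene and library. The submitters' processing notes name mm10 as the build and, without roles, TopHat2, limma, HTSeq and CASAVA 1.8.2. Annotation, filter and strand setting were not given in the sources used here. The deposited log2 values equal log2 of CPM with 0.5 reads added: undoing it gave integers, within 0.001 read, for 100% of values. Symbols, positions and exon lengths came from GENCODE M21, which holds 17236 of the 17488 identifiers. Members and gene lists were chosen with earlier results of these data known. All members may be named, and in each other list the 3 genes with the smallest adjusted p; some of these genes are not reported here.

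The 16157 genes reaching 1 CPM in 4 or more libraries entered a model in R 4.3.3 with limma 3.58.1 (lmFit, then eBayes with a variance trend, no covariate), two-sided, with Benjamini-Hochberg adjustment over all of them. SEs and intervals are from this fit. The fit was tested on simulated counts. RPKM divides recovered reads by exon length and by the effective library size in the deposited values. Replicates are separate animals and pair nothing. Genes with few reads rest on small counts, and the 0.5 reads understate the changes of the lowest genes. Alternatives varied the filter, scaling, offset, weights, variance model, threshold and the libraries left out; leaving out library 1 of both groups was chosen after seeing the data.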

Additional observations from a re-analysis of the deposited data

Results flagged for a closer look

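In 98 groups of 4 libraries, 6 had 1 library far from the other 3, judged by the gap to its nearest neighbour as a share of the group's range on the log2 scale; chance alone gives this for about 5% of groups. With panobinostat these were library 4 for Dlx5 (0.905, highest), library 2 for Hoxb7 (0.900, lowest), library 1 for Pbx4 (0.883, lowest) and library 1 for Six5 (0.847, highest). With vehicle they were library 3 for Pax8 (0.906, its single read) and library 4 for Six2 (0.926, lowest).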

How the results depend on the processing

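Of 41 tested members 19 kept their direction and their side of the threshold under all 20 alternatives in which they were tested, and no HOX gene changed sign under any of them. Leaving out 1 library gave 19 to 20 members higher and 9 to 13 lower, with 14 to 15 HOX genes higher and 4 to 7 lower, and over all genes 4467 to 5106 higher and 4708 to 5361 lower. With a filter of 5 CPM only 16 members and 7 HOX genes were tested, so that 1 member and 0 HOX genes were higher. The count of lower HOX genes was 8 with quantile normalization, 8 with library quality weights and 2 without panobinostat libraries 3 and 4. In that last fit the calls of Hoxc8, Hoxc9, Hoxd8, Hoxb5, Hoxb7, Hoxb8 and Lhx6 were lost. With quantile normalization those of Hoxb5, Hoxb7, Lhx6, Msx1 and Six5 were among those lost. Scaling to read totals and voom weights lost the call of Hoxd8 (adjusted p = 0.0642 and 0.0566, limma). The median of all genes was -0.02 as deposited, -0.12 with quantile normalization and -0.14 with median centring, and 0.10 with read totals; the share of calls that were higher was 49.1%, 43.9%, 42.7% and 55.2% in these fits. Uncalled members changed sign: Pax9 (-0.38) and Lhx9 (-0.53) with quantile normalization, Lhx9 with median centring (-0.059) and library weights (-0.19), and Pbx4 without library 1 of each group (0.017). Without 1 library Lhx9 ranged from -0.21 to 0.28 and Irx3 from -0.89 to 0.11. A planned count model on recovered reads was not run, since the deposited values are log2 values. No paired analysis was possible because the labels number the libraries 1 to 8 across both groups. Depth limits the tested HOXA and HOXB genes, which had 1 to 54 reads in vehicle libraries.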
